A study of Mus musculus with 12 samples.

Results

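The genes described are 9 genes of cell contact and cell shape: the connexin genes Gjb2 and Gja1, the claudin genes Cldn6 and Cldn7, the cadherin genes Cdh1 and Cdh2, the adhesion gene Epcam, the vimentin gene Vim, and Snai1, which encodes a transcription factor. They were chosen by name from the platform's gene symbols, with earlier results of these data known. None was chosen by a threshold on its values. All 9 had a probe, 15 probes in all, and 9 of these probes passed a filter that asked for a detection p-value under 0.05 on at least 2 arrays. This left 7 of the 9 genes among the 11621 genes tested. Cdh2 and Epcam had no probe that passed.

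The RNA was from F9 cells, mouse teratocarcinoma cells known to become extraembryonic endoderm under retinoic acid, and was measured on Illumina bead arrays. Knock-down cells carry pRS-kdm3a, a construct against the histone demethylase gene Kdm3a, and control cells are labelled WT for Kdm3a. The labels do not say which construct, if any, the control cells carry, nor whether the knock-down cells are 1 clone. Each cell type has arrays from cells without treatment (0 h), with retinoic acid for 3 days (72 h), and with 3 days more in which cAMP was added to the retinoic acid (6 d). Each of the 6 groups has 2 arrays, called biological replicates in the labels, and with 2 arrays a group the p-values measure the spread between these samples. The study asks how depletion of Kdm3a alters transcripts as the cells differentiate.

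Gap junctions are clusters of channels, built from connexins, that join the cytoplasm of neighbouring cells. Claudins seal the space between epithelial cells at tight junctions, and E-cadherin, the product of Cdh1, holds cells together at adherens junctions. When epithelial cells become mesenchymal they commonly lose E-cadherin and gain N-cadherin, the product of Cdh2, and vimentin. Snai1 is best known as a repressor of Cdh1 in that transition. Parietal endoderm, the cell type that F9 cells approach in retinoic acid and cAMP, is a migratory cell type.

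The number of arrays limits the precision. Raw median intensities ran from 124.8 to 219.8, and 33.6% to 40.8% of the probes were detected per array. Kdm3a was lower on every knock-down array than on every control array of its stage, with a log2 difference of -1.44 averaged over the 3 stages (SE 0.11, limma adjusted p = 8.36e-04). Stage by stage the difference was -1.06 at 0 h (adjusted p = 0.1001), -1.71 at 72 h (adjusted p = 0.0339) and -1.56 at 6 d (adjusted p = 0.0827). On 19450 probes detected on no array, 3 arrays of different groups resembled each other: knock-down 0 h replicate 2, control 6 d replicate 2 and knock-down 6 d replicate 2, with rank correlations of 0.395 to 0.427. The 72 h arrays correlated at 0.434 to 0.510 with each other on these probes, and all other pairs of arrays at 0.125 to 0.341. Fits without the 3 arrays are given for the member changes that these arrays bear on most and for some of the named list genes that lost a call. They leave only replicate 1 in knock-down 0 h, control 6 d and knock-down 6 d, so their spread comes from the other groups. A fit without a single array also leaves the group of that array unreplicated. All 10 embryonal carcinoma markers and all 10 extraembryonic endoderm markers passed the filter. The summed endoderm marker intensity was 7668 to 9906 in knock-down and 6466 to 7629 in control cells at 0 h. At 72 h it was 86235 to 108480 in knock-down and 96871 to 97408 in control cells, and at 6 d 91693 to 142977 in knock-down and 96666 to 140483 in control cells. For the embryonal carcinoma markers the sums were 52133 to 53681 in knock-down and 57092 to 57128 in control cells at 0 h. They were 43654 to 44323 in knock-down and 54250 to 60452 in control cells at 72 h, and 28901 to 43083 in knock-down and 46510 to 47907 in control cells at 6 d. Pou5f1, Nanog and Sox2 were detected on all 12 arrays. At 6 d against 0 h, 7 of the 10 embryonal carcinoma markers fell in knock-down and 6 in control cells, and none rose. Their median log2 changes were -1.37 and -1.24, and 22.0% of all genes passed in each cell type (limma adjusted p under 0.05). In a group, at most 3 of 8 fibroblast and mesenchyme markers, 2 of 4 macrophage and blood markers, 3 of 6 neural markers and 2 of 4 mesoderm markers with a probe were detected. The part of cell composition in the results was not tested.

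**Figure D1:**
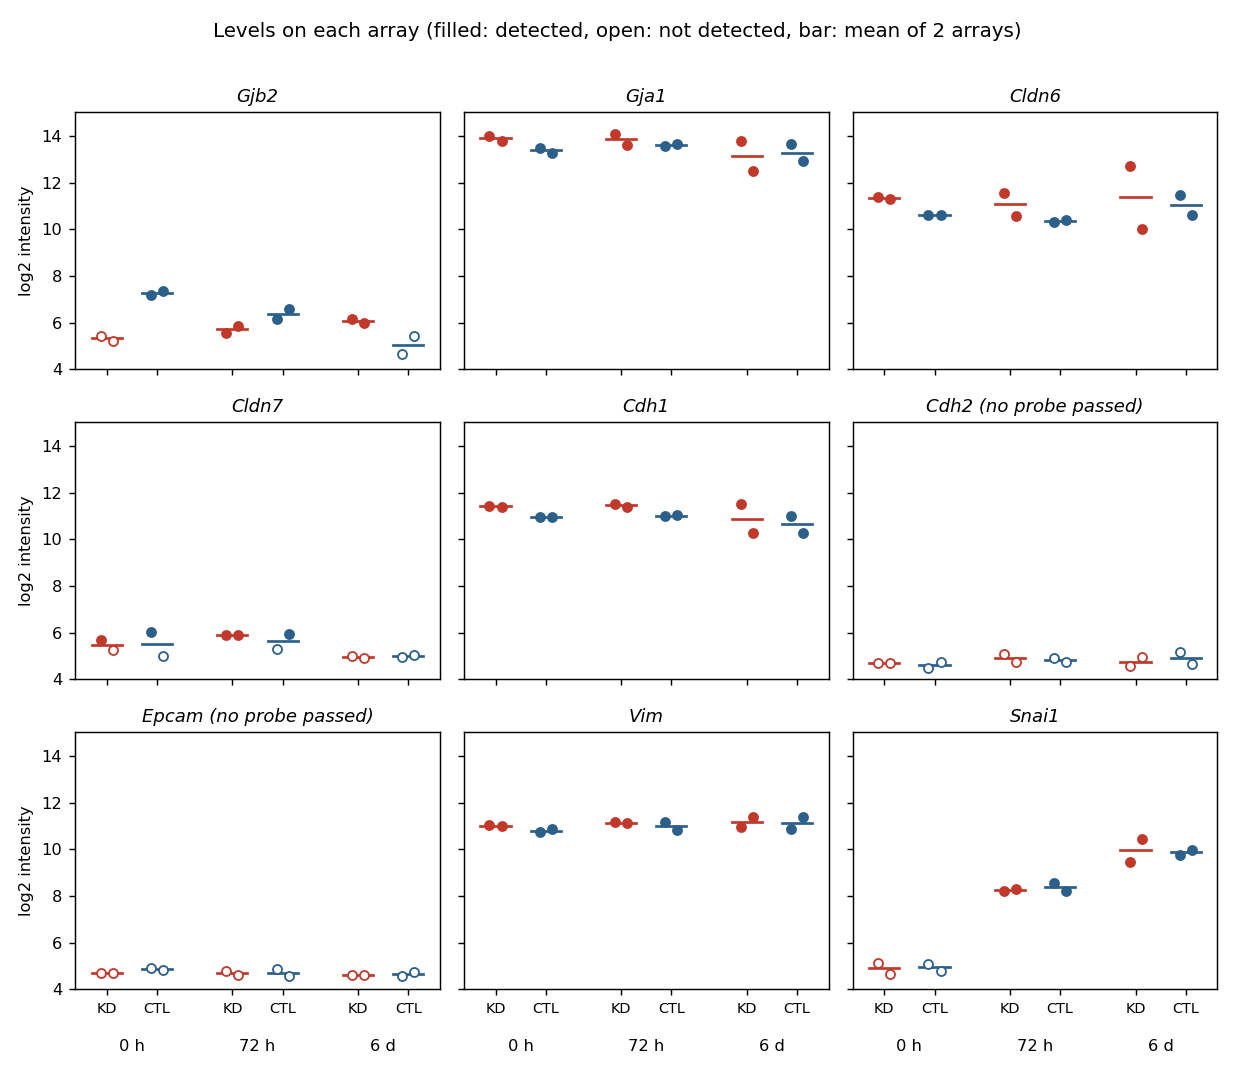
Log2 intensity of each of the 9 genes on the 12 arrays, by stage, with knock-down (KD, red) left of control (CTL, blue); filled points are detected, open points not detected, and bars are the mean of 2 arrays. By the probe shown, Gjb2 was undetected on both knock-down arrays at 0 h and on both control arrays at 6 d. Snai1, by the probe shown, was undetected at 0 h and detected on all 8 later arrays, and Cdh2 and Epcam were detected on none.

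Gjb2, which encodes a connexin subunit of gap junction channels, was the only gene of the 7 tested that differed between knock-down and control cells at a single stage. At 0 h its log2 level (the log2 of the background-corrected and quantile-normalised intensity) was 5.42 and 5.23 on the knock-down arrays, where it was not detected, against 7.19 and 7.36 on the control arrays, where it was. The groups did not overlap. Gjb2 fell at least 2.93-fold in knock-down cells, counting the dim arrays at the lowest detected level or the probe's own, whichever was higher. The fitted log2 difference was -1.95 (SE 0.27, limma adjusted p = 0.0475). Of all genes tested, 6 passed the threshold of an adjusted p under 0.05 in this comparison, 0.0516%, and 1 of the 7 members did. The call was lost without any 1 of the 4 arrays, with adjusted p of 0.182 without knock-down 0 h replicate 1, 0.386 without knock-down 0 h replicate 2, 0.287 without control 0 h replicate 1 and 0.273 without control 0 h replicate 2. Without the 3 arrays that resemble each other the difference was -1.89 (adjusted p = 0.108). Median centring gave -1.498 (adjusted p = 0.111) and the authors' deposited table of normalised intensities -0.69 (adjusted p = 0.134). Both are smaller falls than the bound of 2.93-fold, and 3 of 14 alternatives kept the call. Without a filter, or with only the arrays compared, no gene at all passed in this comparison. In RNA from whole cultures, fewer cells with the transcript and less transcript per cell cannot be told apart.

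In control cells Gjb2 was highest at 0 h and fell at each step: its log2 level was 7.19 and 7.36 at 0 h, then 6.17 and 6.57 at 72 h, then 4.68 and 5.45 at 6 d, the last 2 not detected. No 2 stages overlapped. The change was -0.91 at 72 h against 0 h (SE 0.27, limma adjusted p = 0.0497), -1.31 at 6 d against 72 h (adjusted p = 0.0394) and -2.21 at 6 d against 0 h (adjusted p = 2.65e-04), a fall of at least 3.16-fold over the whole course. The last 2, fitted without the 3 arrays, were -1.76 and -2.66. With the authors' table the change over the whole course was -0.81, a smaller fall than the bound of 3.16-fold. In knock-down cells the levels were 5.42 and 5.23 at 0 h, then 5.57 and 5.85 at 72 h, then 6.16 and 6.00 at 6 d, detected from 72 h on. These stages did not overlap either, and the change of 0.76 at 6 d against 0 h (95% interval 0.15 to 1.36, adjusted p = 0.0732) did not pass the threshold. The change at 72 h against 0 h in knock-down cells, 0.38 as fitted, was -0.22 under median centring. At 6 d the knock-down arrays were above the control arrays, by 1.02 on the log2 scale (95% interval 0.42 to 1.63, adjusted p = 0.324), and at 72 h below them, by -0.66 (95% interval -1.26 to -0.05, adjusted p = 1.00). The difference at 6 d was 1.55 without the 3 arrays, where it compares only replicate 1 of each cell type.

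The difference between the courses was tested as an interaction. The change of Gjb2 at 6 d against 0 h was 2.97 log2 units higher in knock-down than in control cells (95% interval 2.11 to 3.82, limma adjusted p = 0.0782), which did not pass over all genes. This value was 2.62 to 3.36 when 1 array of these groups was left out at a time, and 3.44 without the 3 arrays. Such fits hold groups of 1 array. No gene passed in any of the 3 interactions (0% in each), where 426, 223 and 696 genes had an unadjusted p under 0.05 for 72 h against 0 h, 6 d against 72 h and 6 d against 0 h. The fall of Gjb2 in control cells over the whole course held in each of the 4 fits that left out 1 of its arrays, with adjusted p of 2.47e-04 to 0.00407. The first step was lost without any 1 of its arrays: the adjusted p was 0.290 and 0.103 without control 72 h replicate 1 and 2, and 0.127 and 0.221 without control 0 h replicate 1 and 2. The second step was lost without control 6 d replicate 1 (0.121), control 72 h replicate 1 (0.168) or control 72 h replicate 2 (0.334).

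The Gjb2 signal came from 1 of its 3 probes, and the other 2 were detected on no array. On the raw scale that probe averaged 316 intensity units in control cells at 72 h against 222 at 0 h, a higher raw value where the normalised level was lower. The upper tail of the 72 h arrays was brighter, with 95th percentiles of 2162 to 2533, where those of the 0 h and 6 d arrays were 908 to 1720. At 0 h the same probe read 137.5 and 220.5 raw units in knock-down and 255.8 and 187.5 in control cells, so the raw values overlapped where the normalised levels did not.

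The promoters of the members that changed are shown with the E-box that Snail proteins bind, CAGGTG or CACCTG on the other strand, in capitals. They are the 250 bases before the annotated start in RefSeq (GRCm38.p6), 5′ to 3′ along the gene, with Gjb2 at chr14:57104703-57104952 on the minus strand and Snai1 at chr2:167537945-167538194 on the plus strand.
Gjb2: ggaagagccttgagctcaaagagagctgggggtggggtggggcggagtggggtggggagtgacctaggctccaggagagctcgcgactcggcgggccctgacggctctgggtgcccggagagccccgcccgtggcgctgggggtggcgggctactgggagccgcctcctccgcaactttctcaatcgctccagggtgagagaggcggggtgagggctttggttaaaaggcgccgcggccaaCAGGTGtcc
Snai1: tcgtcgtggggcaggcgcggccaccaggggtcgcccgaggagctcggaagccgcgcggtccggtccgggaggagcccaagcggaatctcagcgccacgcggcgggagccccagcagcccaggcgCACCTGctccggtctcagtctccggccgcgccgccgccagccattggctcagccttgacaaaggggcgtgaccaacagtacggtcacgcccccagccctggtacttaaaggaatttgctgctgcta
The Gjb2 box lies 9 bases before the start and the Snai1 box 126 bases before it. A promoter was read for 7 of the 9 members, and 5 of them held the box: Gjb2, Snai1, Cldn6, Cldn7 at the second of its 2 starts, and Epcam. Gja1 and Vim had none in this window. No promoter was read for Cdh1 or Cdh2, so the box was not looked for there. Among 32851 promoters of the same length, 17.2% held it. That share is counted by promoter, whereas the members are counted by gene, with Cldn7 read at 2 starts. A match describes the letters and is not a bound site.

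Snai1, the zinc finger repressor, rose in both cell types with differentiation. In knock-down cells its log2 level was 5.12 and 4.67 at 0 h, where it was not detected, then 8.19 and 8.28 at 72 h, then 9.46 and 10.44 at 6 d. In control cells it was 5.08 and 4.79 at 0 h, also not detected, then 8.54 and 8.22 at 72 h, then 9.76 and 9.97 at 6 d. The 3 stages did not overlap in either cell type, while knock-down and control arrays overlapped at every stage.

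At 72 h against 0 h Snai1 rose at least 5.71-fold in knock-down cells (log2 change 3.34, SE 0.31, limma adjusted p = 8.50e-05) and at least 6.42-fold in control cells (3.44, adjusted p = 5.87e-05). At 6 d against 0 h it rose at least 18.7-fold in knock-down cells (5.05, adjusted p = 3.01e-06) and at least 18.05-fold in control cells (4.93, adjusted p = 3.26e-06). These 4 calls held in all 14 alternatives run for each, but their size did not. The smallest changes, with the authors' table, were 1.42 in knock-down and 1.48 in control cells at 72 h, and 2.75 and 2.64 at 6 d, all under the bounds given above. The changes at 6 d were 4.38 and 4.87 without the 3 arrays. The second step, 6 d against 72 h, was 1.72 in knock-down (adjusted p = 0.0183) and 1.49 in control cells (adjusted p = 0.0394). Leaving out either knock-down 72 h array lost it in knock-down cells (adjusted p of 0.121 and 0.0990 without replicates 1 and 2). In control cells it was lost without any 1 of its 4 arrays, with adjusted p of 0.175 and 0.306 without control 72 h replicates 1 and 2, and 0.0860 and 0.172 without control 6 d replicates 1 and 2. With the 3 arrays left out it was 1.21 (adjusted p = 0.0268) in knock-down and 1.37 (adjusted p = 0.0277) in control cells.

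Knock-down minus control was -0.04 for Snai1 at 0 h, where both groups were undetected, -0.14 at 72 h (95% interval -0.83 to 0.55) and 0.08 at 6 d (95% interval -0.61 to 0.77). The interaction for 6 d against 0 h was 0.12 (95% interval -0.85 to 1.10, limma adjusted p = 0.999). The 2 Snai1 probes disagreed in part. The dimmer one was detected on knock-down 0 h replicate 1 and on neither knock-down 72 h array, unlike the brighter one described above. It differed by -0.03 in knock-down and 0.26 in control cells at 72 h against 0 h. At 6 d against 0 h it differed by 1.59 and 1.11, with no test run on this probe alone.

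**Figure D2:**
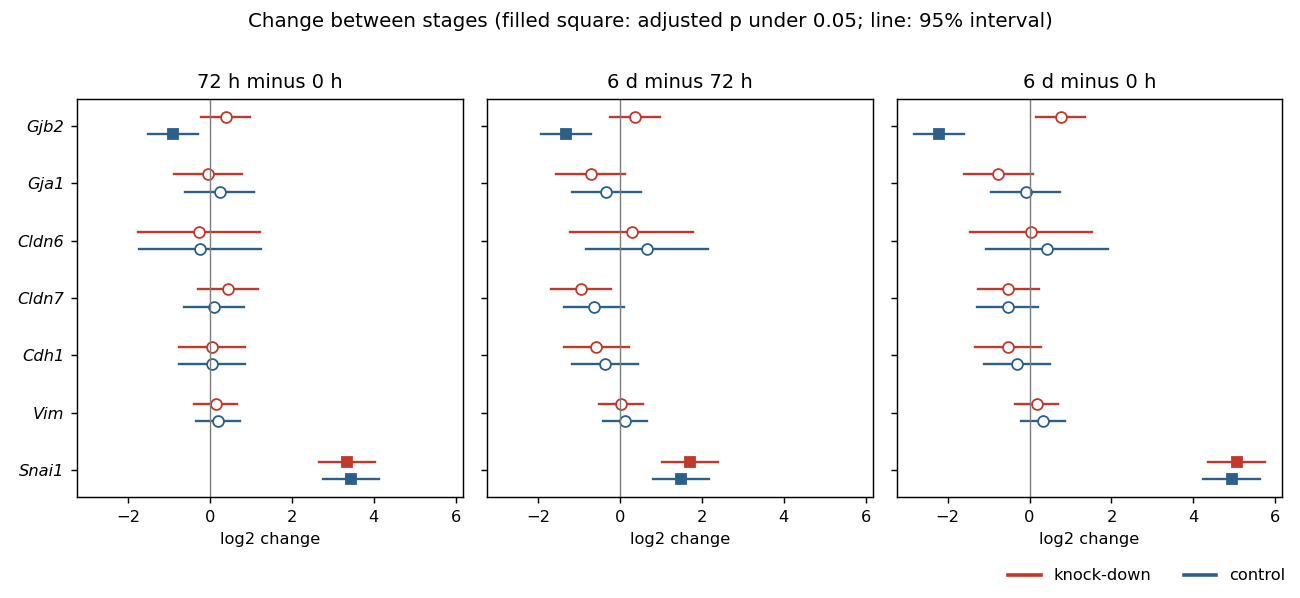
Log2 change between stages for the 7 tested genes, knock-down (red) above control (blue); filled squares have a limma adjusted p under 0.05, and lines are 95% intervals. Snai1 lies to the right of 0 in both cell types at every step, and Gjb2 to the left of 0 in control cells alone, with 0.76 in knock-down cells at 6 d against 0 h.

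Counted over the 7 tested members, Snai1 and no other changed in knock-down cells and Snai1 and Gjb2 changed in control cells. At 72 h against 0 h, 1 of 7 members passed in knock-down cells, where 16.3% of all genes did, and 2 of 7 in control cells, where 14.7% did. For 6 d against 72 h the counts were 1 of 7 in knock-down (3.64% of all genes) and 2 of 7 in control cells (2.44%). Over the whole course they were 1 of 7 in knock-down (22.0%) and 2 of 7 in control cells (22.0%). The median log2 change of the 7 at 6 d against 0 h was 0.03 in knock-down and -0.10 in control cells, against -0.03 in both over all genes. Between the cell types, no member passed at 72 h (0.00861% of all genes), at 6 d (0%, with 910 genes at an unadjusted p under 0.05) or averaged over the stages (0.379%). In those 3 comparisons 1 of the 7 members, Gjb2, had an unadjusted p under 0.05.

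Gja1 encodes the other connexin among the members, the one most widely expressed in mammalian tissues, and was detected on all 12 arrays. Its log2 level in knock-down cells was 14.00 and 13.79 at 0 h, then 14.09 and 13.61 at 72 h, then 13.77 and 12.50 at 6 d. In control cells it was 13.48 and 13.27, 13.58 and 13.63, and 13.63 and 12.93. The knock-down arrays were above the control arrays at 0 h and overlapped them at 72 h and 6 d. Knock-down minus control was 0.52 at 0 h (95% interval -0.32 to 1.36), 0.24 at 72 h (-0.60 to 1.08) and -0.15 at 6 d (-0.99 to 0.70), none past the threshold.

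Cdh1, the E-cadherin gene, was detected on all 12 arrays by its brighter probe. Its log2 level in knock-down cells was 11.42 and 11.39 at 0 h, then 11.53 and 11.38 at 72 h, then 11.52 and 10.25 at 6 d, against 10.95 and 10.97, 11.01 and 11.03, and 11.00 and 10.29 in control cells. The knock-down arrays lay above the control arrays at 0 h and 72 h and overlapped them at 6 d. The difference was 0.44 at 0 h (95% interval -0.36 to 1.25), 0.43 at 72 h (-0.37 to 1.24), 0.24 at 6 d (-0.57 to 1.04) and 0.37 averaged over the stages (-0.09 to 0.84, limma adjusted p = 0.549). A dimmer second probe differed by -0.11, 0.24 and 0.59 at the 3 stages. Between stages it differed by -0.27 in knock-down and -0.97 in control cells at 6 d against 0 h. At 6 d against 72 h the values were -0.79 and -1.14. In control cells this probe was detected on both 72 h arrays and on neither 6 d array, and no test was run on it alone.

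Cldn6, a claudin gene of early embryonic epithelia, had log2 levels of 11.38 and 11.29 in knock-down cells at 0 h, then 11.57 and 10.58 at 72 h, then 12.71 and 10.02 at 6 d. Control cells had 10.62 and 10.61, 10.32 and 10.42, and 11.48 and 10.60. The knock-down arrays were above the control arrays at 0 h and 72 h. At 6 d they held both the highest and the lowest value, 2.69 log2 units apart. Knock-down minus control was 0.73 at 0 h (95% interval -0.76 to 2.22), 0.71 at 72 h (-0.78 to 2.20), 0.32 at 6 d (-1.17 to 1.81) and 0.59 averaged over the stages (-0.27 to 1.45, limma adjusted p = 0.631).

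These 3 genes share a feature of the 6 d arrays: in both cell types replicate 2, 1 of the 3 arrays that resemble each other, was lower than replicate 1. Some results turned on single arrays. Without knock-down 6 d replicate 2, the averaged knock-down minus control difference of Cldn6 was 1.03 and its change in knock-down cells at 6 d against 0 h was 1.36. Without knock-down 6 d replicate 1, Gja1 changed by -1.39, Cdh1 by -1.15 and Cldn6 by -1.32 in that last comparison. With both replicates the changes at 6 d against 0 h in knock-down cells were -0.76 for Gja1 (95% interval -1.60 to 0.08), -0.52 for Cdh1 (-1.32 to 0.28) and 0.03 for Cldn6 (-1.46 to 1.52). Without the 3 arrays they were -0.23, 0.097 and 1.301, while Cldn6 at 6 d against 72 h was 1.60 in knock-down cells. The averaged knock-down minus control difference was then 0.89 for Cldn6 and 0.46 for Cdh1. Each of these fits with arrays left out has at least 1 group of 1 array. In control cells the change at 6 d against 0 h was -0.10 for Gja1 (-0.94 to 0.75), -0.32 for Cdh1 (-1.12 to 0.49) and 0.43 for Cldn6 (-1.06 to 1.92).

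**Figure D3:**
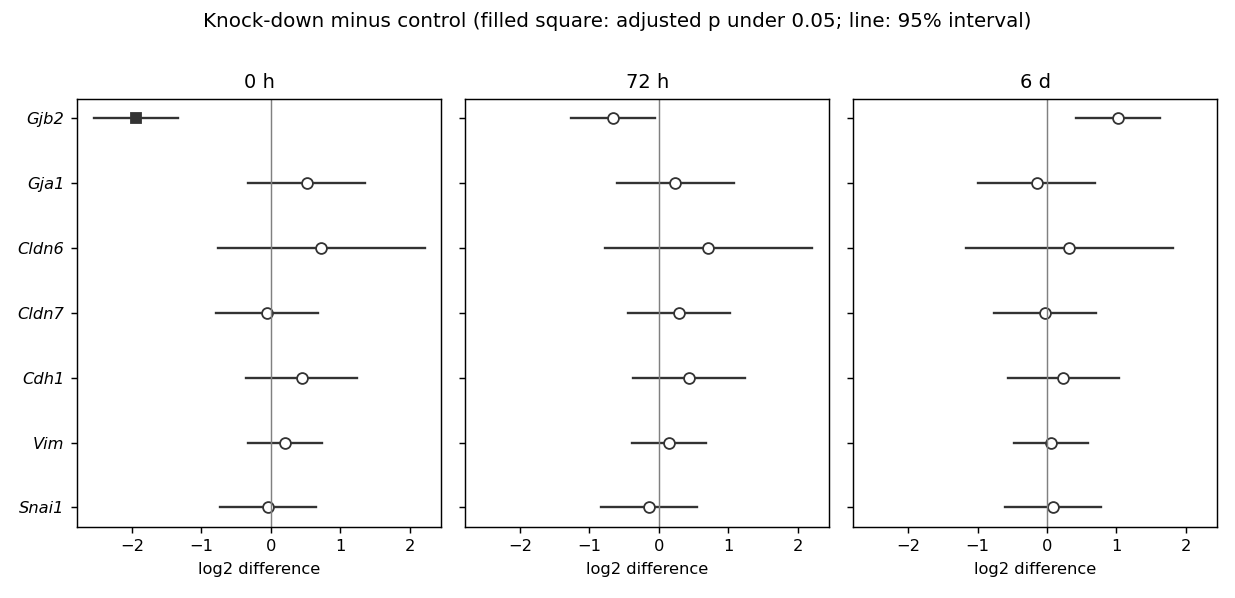
Knock-down minus control log2 difference at 0 h, 72 h and 6 d for the 7 tested genes, with 95% intervals; the filled square has a limma adjusted p under 0.05. Gjb2 lies at -1.95, -0.66 and 1.02 at the 3 stages, and the intervals of the 6 other genes include 0 at every stage.

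Cldn7, a claudin gene of simple epithelia, was dim and was detected on 5 of the 12 arrays. In knock-down cells its log2 level was 5.68 and 5.27 at 0 h, then 5.91 and 5.92 at 72 h, then 4.99 and 4.93 at 6 d. In control cells it was 6.05 and 5.01, 5.30 and 5.96, and 4.96 and 5.03. It was detected on both knock-down arrays at 72 h, on 1 array of each of the other 0 h and 72 h groups, and on no array at 6 d. The change at 6 d against 72 h was -0.95 in knock-down (95% interval -1.69 to -0.22, limma adjusted p = 0.141) and -0.64 in control cells (-1.37 to 0.10, adjusted p = 0.338).

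Vim, the intermediate filament gene of mesenchymal cells, was detected on all 12 arrays by its brighter probe and on none by the other. Its log2 level lay between 10.74 and 11.38 on all of them. In knock-down cells it was 11.03 and 10.98 at 0 h, then 11.18 and 11.10 at 72 h, then 10.97 and 11.38 at 6 d, and in control cells 10.74 and 10.86, 11.18 and 10.81, and 10.89 and 11.36. Its SD over the arrays was above that of 6.85% of the genes tested. The change at 6 d against 0 h was 0.17 in knock-down (95% interval -0.36 to 0.70) and 0.32 in control cells (-0.21 to 0.86), and knock-down minus control was 0.20, 0.15 and 0.05 at the 3 stages.

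Cdh2, the N-cadherin gene, had 2 probes and was detected on no array, with a lowest detection p-value of 0.132. Epcam, an epithelial cell adhesion molecule, had 1 probe, with a lowest detection p-value of 0.385. When no filter was set, their log2 changes at 6 d against 0 h were 0.08 for Cdh2 and -0.07 for Epcam in knock-down cells, and 0.29 and -0.22 in control cells, none past the threshold. Probes at background do not show that a transcript is absent.

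As a description, the genes whose log2 levels ran most like each member over the 12 arrays were Olfr1116, Pstpip2 and Epb41l4a for Gjb2 (Pearson r of 0.87, 0.86 and 0.85). Olfr1116 was detected on 2 arrays and Pstpip2 on 4. For Snai1 they were Crtc3, Dap and Lor (each 0.99 and detected on 8 arrays), and for Gja1 Iqgap1 (0.96), Slc19a2 and Lrrc3 (both 0.95). Cdh1 was followed by Taok1 (0.95), Shroom2 and Ror2 (both 0.94), and Cldn6 by Cpt1c (0.97), St14 and Man2b1 (both 0.95). For Cldn7 they were Ulk4 (0.89, detected on 5 arrays), Zfp598 (0.89) and Phf3 (0.88), and for Vim Psma4 (0.92), Ppp2r5b (0.89) and B3gat2 (0.88). The 12 arrays share stages, cell types and the 3 arrays described above, and these values carry no test.

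In knock-down minus control averaged over the stages, no gene passed among 8 tested gap junction genes, 21 tight junction genes, 16 adherens junction and cadherin genes, 7 desmosome genes, 13 epithelial regulators and 21 mesenchymal transition genes, the members left out. At an unadjusted p under 0.05 there were 1, 6, 1, 2, 2 and 1 of them, where 12.0% of all genes had one. The lists' median differences were -0.19, 0.02, 0.06, -0.02, -0.08 and 0.12, in that order, against -0.0025 over all genes. Changes of the listed genes are on the log2 scale unless given as a fold.

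At 6 d against 0 h, 22.0% of all genes passed in each cell type. Among the gap junction genes, at 6 d against 0 h 2 of 8 fell in knock-down cells and 1 in control cells, and none rose. Gjc1, a connexin gene of the early embryo and heart, fell, with log2 changes of -2.86 in knock-down (limma adjusted p = 0.00153) and -2.03 in control cells (adjusted p = 0.0106). Gjd2, a connexin gene of neurons, fell at least 1.32-fold in knock-down cells (adjusted p = 0.0433). At 72 h against 0 h, no gap junction gene passed in knock-down cells, where 16.3% of all genes did. There 3 had an unadjusted p under 0.05, beside 31.2% of all genes. In control cells, where 14.7% of all genes passed, 2 of 8 rose. They were Gja4, a vascular connexin gene, by 1.26 (adjusted p = 0.0356) and Gjb1, a liver connexin gene, at least 1.12-fold (adjusted p = 0.0331). No gene of the list passed in an interaction.

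Among the 21 tight junction genes, 5 rose and 1 fell in knock-down cells at 6 d against 0 h, and 4 rose and 1 fell in control cells, which is 6 and 5 of 21 beside the 22.0% of all genes. Patj, a scaffold of the Crumbs polarity complex, rose by 0.92 in knock-down (limma adjusted p = 0.0350) and at least 2.33-fold in control cells (adjusted p = 0.00137). Pard6g, a polarity adaptor, rose by 1.32 in knock-down (adjusted p = 0.00315) and by 1.16 in control cells (adjusted p = 0.00647). Tjp3, a junction scaffold, fell at least 1.14-fold in knock-down and at least 1.28-fold in control cells. Jam3, a junctional adhesion molecule, was undetected at 0 h in both cell types. It rose at least 2.13-fold in control cells, and its fitted change in knock-down cells was 0.87 (adjusted p = 0.0389). At 72 h against 0 h it rose at least 2.15-fold in knock-down and 2.57-fold in control cells. At that step Cgnl1, a cingulin relative, rose by 1.48 in knock-down and 1.08 in control cells, and the claudin gene Cldn9 fell, with log2 changes of -1.08 and -0.996. The knock-down calls of Patj at 6 d (0.66, adjusted p = 0.165) and Cldn9 at 72 h (-1.10, adjusted p = 0.0728) were lost without the 3 arrays. Between 72 h and 6 d none of the 21 passed in either cell type, where 3.64% of all genes did in knock-down and 2.44% in control cells. At an unadjusted p under 0.05 there were 4 in knock-down and 6 in control cells, where 21.2% and 18.8% of all genes had one.

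Of 16 adherens junction and cadherin genes, 2 rose and 3 fell at 6 d against 0 h in knock-down cells, and likewise 2 and 3 in control cells, 5 of 16 in each beside the 22.0% of all genes. Cdh3, the P-cadherin gene, fell, with log2 changes of -2.41 in knock-down (limma adjusted p = 0.00195) and -2.87 in control cells (adjusted p = 6.56e-04). Cdh4, the R-cadherin gene, fell too, with log2 changes of -2.25 in knock-down (adjusted p = 5.35e-04) and -1.15 in control cells (adjusted p = 0.0228). Cdh5, the VE-cadherin gene of endothelium, was undetected at 0 h and rose at least 3.97-fold in knock-down (adjusted p = 0.00118) and at least 4.85-fold in control cells (adjusted p = 0.00170). Cdh6, the K-cadherin gene, rose at least 1.70-fold in knock-down and at least 2.68-fold in control cells. In knock-down cells Cdh13 fell at least 2.21-fold at 72 h against 0 h (adjusted p = 0.0263) and rose at least 2.72-fold at 6 d against 72 h (adjusted p = 0.0343), with 0.30 over the whole course (adjusted p = 0.637). From 72 h to 6 d, Cdh4 had a log2 change of -1.79 in knock-down cells (adjusted p = 0.0149), and Afdn, an actin-binding junction scaffold, had one of -1.16 in control cells (adjusted p = 0.0433). Both Cdh13 calls were lost without the 3 arrays (adjusted p = 0.193 and 0.247), as was that of Afdn (adjusted p = 0.0947).

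Of 7 desmosome genes, 1 fell in each cell type at 6 d against 0 h: Pkp2, a plakophilin gene, with log2 changes of -1.06 in knock-down (limma adjusted p = 0.0188) and -1.503 in control cells (adjusted p = 0.00298). Its knock-down change was -0.72 without the 3 arrays (adjusted p = 0.140). Of 13 epithelial regulators, 3 rose and 3 fell in knock-down cells, and 2 rose and 3 fell in control cells, 6 and 5 of 13 beside the 22.0% of all genes. Elf3, an epithelial ETS factor, rose by 2.73 in knock-down and by 3.24 in control cells. Klf4, a Krüppel-like factor, rose by 1.72 in knock-down and by 0.91 in control cells. Rab25, a small GTPase of epithelia, had log2 changes of -1.48 in knock-down and -1.59 in control cells, and the protease inhibitor gene Spint2 had -1.48 and -1.44, each past the threshold. The splicing regulator genes Esrp1 and Esrp2 had -1.75 and 1.74 in knock-down cells, both past the threshold, and 0.04 and 1.06 in control cells, neither past it. Grhl1, a Grainyhead factor, had 0.08 in knock-down cells, not past the threshold, and fell at least 1.95-fold in control cells. No interaction passed for these genes. Without the 3 arrays the calls of Esrp2 in knock-down (1.25) and Spint2 in control cells (-1.05) were lost. Rab25 and Spint2 did not both keep their calls in knock-down cells in that fit.

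Of 21 mesenchymal transition genes, 4 rose and 1 fell in knock-down cells at 6 d against 0 h, and 4 rose and 2 fell in control cells, 5 and 6 of 21 beside the 22.0% of all genes. The list's medians were 0.58 and 0.46 against -0.03 over all genes in both. Tgm2, a transglutaminase gene induced by retinoic acid, rose by 4.00 in knock-down (limma adjusted p = 1.55e-04) and by 4.23 in control cells (adjusted p = 9.51e-05). Tgfbr2, a receptor for TGF-beta, rose by 3.41 and by 3.15, and Sparc, a matrix protein abundant in parietal endoderm, by 2.18 and by 2.76. Tgfb1, a TGF-beta ligand gene, fell at least 3.59-fold in knock-down and at least 2.68-fold in control cells. Sparc and Tgm2 are also known as genes of endoderm and of the retinoic acid response, and the summed endoderm markers given above were higher at 72 h and 6 d than at 0 h in both cell types, and their part in these changes was not tested.

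**Figure D4:**
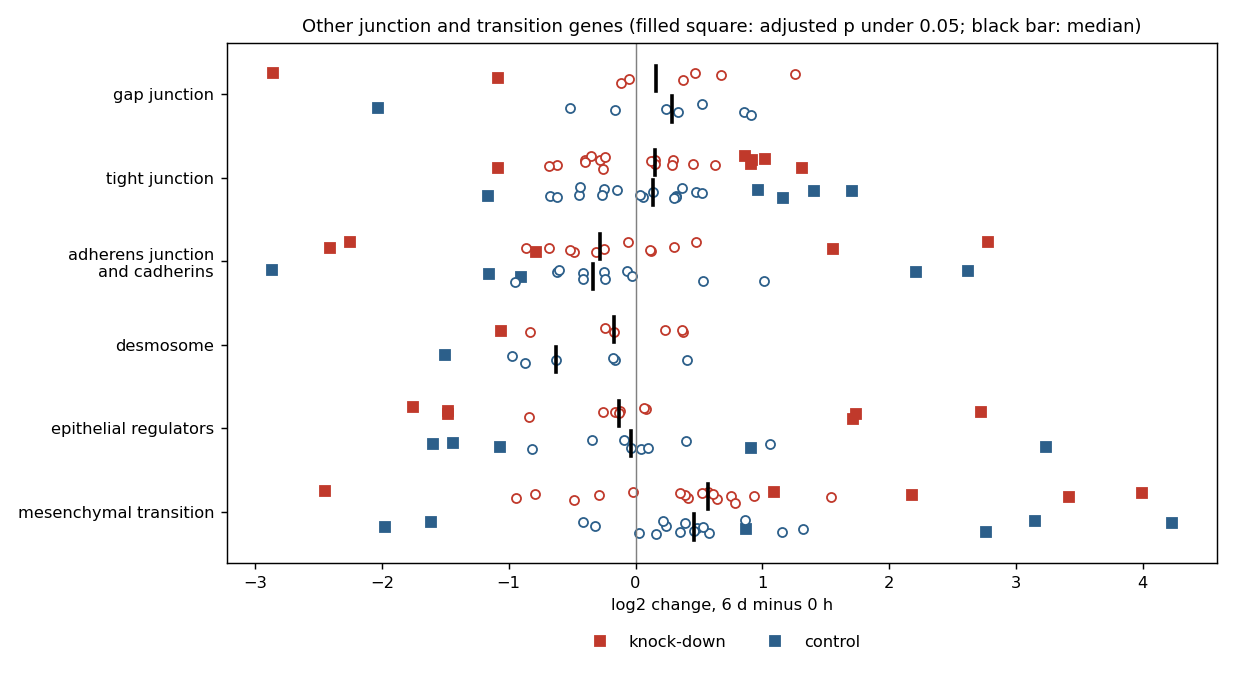
Log2 change at 6 d against 0 h of the tested genes of 6 lists, the 9 described genes left out, with knock-down (red) above control (blue); filled squares have a limma adjusted p under 0.05 and black bars are medians. Each list holds genes on both sides of 0, from -2.87 for Cdh3 to 4.23 for Tgm2 in control cells.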

How the data were processed

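The labels gave each array's group and replicate number. For each of 45281 probes on 12 arrays the authors deposited a non-normalized intensity with its detection p-value. Neither the software nor the settings behind them were given in the sources used here. A second deposited table of intensities, which its values show to be quantile normalized on a linear scale, served as an alternative.

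Background was corrected by nec in limma 3.58.1 (R 4.3.3) with an offset of 16, and arrays were quantile normalized and taken to log2. Probes detected at a p-value under 0.05 on at least 2 arrays were kept (21525). Platform annotation named 34885 probes by 1 symbol, 18 had several symbols, and 10378 were without. Each of 11621 genes was read by its brightest probe. One limma fit (lmFit, eBayes) to all 12 arrays estimated the 6 group means, with Benjamini-Hochberg adjustment within each of 13 comparisons. The code was tested on simulated data.

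Alternatives were median centring, the authors' table, an offset of 50, no filter, a stricter filter (0.01 on at least 4 arrays), the mean of a gene's probes, the replicate block, only the arrays compared, and each array left out. The members and the 6 lists (gap junction, tight junction, adherens junction and cadherins, desmosome, epithelial regulators, mesenchymal transition) were chosen with earlier results of these data known. All members are named, with up to 4 called genes of each list by size of change, and the 3 genes most correlated with each tested member, Riken, Gm and LOC symbols passed over.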

Additional observations from a re-analysis of the deposited data

How the results depend on the processing

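With 2 arrays a group, calls near the threshold rest on single arrays. Over the 14 alternatives to each of the 10 calls of Gjb2 and Snai1, the call was kept 110 times and lost 30 times, with the same direction throughout. The 3 arrays that resemble each other and the crossed pairing were treated as alternatives chosen after seeing the data. The labels state no pairing by replicate number, and the main fit used none. Deviations of same-numbered arrays correlated above 0.1 in 7 of 15 pairs of groups, from -0.11 to 0.53. The 3 arrays that resemble each other are all replicate 2. These values do not settle whether same-numbered arrays were paired. With the replicate block the fall of Gjb2 in knock-down cells at 0 h had a limma adjusted p of 0.0513, which left 0 members called there, and no other member call changed. The crossed pairing of the control 72 h and 6 d arrays left 1 member called.

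For knock-down minus control at 0 h, 0 members passed under median centring, the authors' table, no filter, only the arrays compared and a term for the 3 arrays. No gene at all passed there with no filter, with only the arrays compared or with the replicate block. Over all genes, 1 rose and 2 fell under median centring, and 1 rose and 5 fell with the authors' table. At 72 h against 0 h in control cells, 1 passed under the authors' table and no filter, and 1 in each fit without 1 array. For 6 d against 72 h, 1 control call was left under the authors' table, the mean of probes and only the arrays compared, and 0 to 1 without 1 array. In knock-down cells at that step, 0 passed with only the arrays compared, 2 without the 3 arrays, and 0 to 1 without 1 array. In knock-down cells over the whole course, 1 to 3 passed without 1 array. The averaged difference and the interaction at 6 d against 0 h each had 0 to 1 without 1 array. The cause was not tested.

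Median centring moved the median of all genes at 72 h against 0 h, by -0.24 in both knock-down and control cells, and at 6 d against 72 h by 0.13 and 0.14. It gave 844 genes that rose and 2194 that fell in knock-down cells at 72 h against 0 h (1021 and 870 as reported), and 860 and 2129 in control cells (946 and 765 as reported). At 6 d against 72 h it gave 932 and 254 in knock-down (257 and 166 as reported) and 925 and 211 in control cells (175 and 109 as reported). The averaged knock-down minus control difference gave 3 to 297 genes without 1 array, and 310 without the 3 arrays, against 44 as reported.

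Sign changes occurred 131 times, all in log2 changes called neither as reported nor in the alternative. With the mean of probes the values were 0.0026 for Snai1 in knock-down minus control at 0 h, and 0.039 for Snai1 in averaged knock-down minus control. This setting also gave 0.17 for Cdh1 in the interaction 72 h against 0 h, and 0.075 for Cdh1 in the interaction 6 d against 72 h. It further gave 0.25 for Cdh1 in the interaction 6 d against 0 h. Without the 3 arrays the values were 0.16 for Cldn7 and 0.19 for Snai1 in knock-down minus control at 0 h, and 0.14 for Gja1, 0.028 for Cldn7 and -0.30 for Snai1 in knock-down minus control at 6 d. This setting also gave 0.024 for Gja1 and -0.11 for Vim in control 6 d against 72 h, and 0.26 for Gja1 and 0.041 for Cdh1 in control 6 d against 0 h. It further gave 0.063 for Cdh1 and -0.17 for Vim in knock-down 6 d against 72 h, and 0.10 for Cdh1 and -0.062 for Vim in knock-down 6 d against 0 h. This setting also gave 0.51 for Cldn6, 0.078 for Cdh1 and -0.16 for Snai1 in the interaction 6 d against 72 h, and 0.45 for Cldn6, -0.13 for Cldn7, 0.056 for Cdh1 and -0.49 for Snai1 in the interaction 6 d against 0 h. With a term for the 3 arrays the values were 0.010 for Cldn7 in knock-down minus control at 0 h, and 0.034 for Gja1 and -0.0082 for Vim in control 6 d against 72 h. This setting also gave 0.27 for Gja1 and 0.019 for Cdh1 in control 6 d against 0 h, and -0.29 for Cdh1 in knock-down 72 h against 0 h. It further gave -0.11 for Vim in knock-down 6 d against 72 h, and 0.083 for Vim and 0.023 for Snai1 in the interaction 72 h against 0 h. This setting also gave -0.044 for Cldn7 in the interaction 6 d against 0 h. Median centring gave -0.15 for Gja1, -0.45 for Cldn7 and -0.13 for Cdh1 in control 72 h against 0 h, and 0.038 for Gja1 in control 6 d against 72 h. This setting also gave -0.22 for Gjb2, -0.046 for Cldn7, -0.16 for Cdh1 and -0.020 for Vim in knock-down 72 h against 0 h, and -0.048 for Cldn6 in knock-down 6 d against 0 h. It further gave -0.0085 for Cldn7 in the interaction 6 d against 0 h. The authors' table gave -0.0023 for Cldn7 in the interaction 6 d against 0 h.

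Without 1 array at a time, the values that changed sign had these ranges. For knock-down minus control at 0 h it was -0.59 to 0.47 for Cldn7 and -0.27 to 0.19 for Snai1. In knock-down minus control at 72 h it was -0.0012 to 0.48 for Gja1, -0.042 to 0.58 for Cldn7, -0.037 to 0.33 for Vim and -0.30 to 0.021 for Snai1. For knock-down minus control at 6 d it was -0.78 to 0.49 for Gja1, -1.02 to 1.66 for Cldn6, -0.40 to 0.87 for Cdh1, -0.19 to 0.29 for Vim and -0.41 to 0.57 for Snai1. In averaged knock-down minus control it was -0.0066 to 0.42 for Gja1, -0.11 to 0.24 for Cldn7 and -0.20 to 0.13 for Snai1. For control 72 h against 0 h it was -0.43 to 0.63 for Cldn7. In control 6 d against 72 h it was -0.68 to 0.025 for Gja1 and -0.11 to 0.37 for Vim. For control 6 d against 0 h it was -0.45 to 0.26 for Gja1, -0.010 to 0.86 for Cldn6 and -0.67 to 0.042 for Cdh1. In knock-down 72 h against 0 h it was -0.29 to 0.19 for Gja1, -0.76 to 0.23 for Cldn6 and -0.027 to 0.12 for Cdh1. For knock-down 6 d against 72 h it was -1.06 to 1.62 for Cldn6, -1.20 to 0.064 for Cdh1 and -0.17 to 0.24 for Vim. In knock-down 6 d against 0 h it was -1.32 to 1.36 for Cldn6, -1.15 to 0.11 for Cdh1 and -0.035 to 0.38 for Vim. For the interaction 72 h against 0 h it was -0.51 to 0.48 for Cldn6, -0.18 to 0.88 for Cldn7, -0.082 to 0.067 for Cdh1, -0.24 to 0.13 for Vim and -0.33 to 0.13 for Snai1. In the interaction 6 d against 72 h it was -1.02 to 0.25 for Gja1, -1.73 to 0.95 for Cldn6, -0.62 to 0.0087 for Cldn7, -0.83 to 0.43 for Cdh1, -0.34 to 0.14 for Vim and -0.27 to 0.71 for Snai1. For the interaction 6 d against 0 h it was -1.74 to 0.94 for Cldn6, -0.50 to 0.55 for Cldn7, -0.84 to 0.43 for Cdh1, -0.39 to 0.085 for Vim and -0.37 to 0.61 for Snai1.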
